A study of Mus musculus with 6 samples.

Results

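Matrix metalloproteinases (MMPs) are zinc-dependent proteases that cut collagens, elastin and other matrix proteins, and the tissue inhibitors of metalloproteinases (TIMPs) bind their active site and block them. Most MMPs are made as inactive precursors, so a transcript level is not an enzyme activity. In injured muscle, macrophages (MPs) secrete several of these enzymes while dead fibers are cleared and the matrix is rebuilt.

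The 10 genes described here are 7 MMPs (Mmp2, Mmp8, Mmp9, Mmp12, Mmp13, Mmp14 and Mmp19) and 3 TIMPs (Timp1, Timp2 and Timp3). They were selected on being present by name in the deposited expression table, which holds 13008 genes, and all 10 listed genes were found. The list was drawn up with earlier results of these data known, so its p-values describe the fit over all genes and are not independent evidence about the family.

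The RNA came from MPs sorted from skeletal muscle of C57BL/6J mice, 3 months old and labelled male, on day 5 after cardiotoxin injury of the tibialis anterior, gastrocnemius and quadriceps. The sort took GFP-positive, F4/80-positive, Ly6C-low cells, and there were 3 Control and 3 Cripto KO samples. The Control genotype is labelled wild type, and by the study's methods these animals carried the LysMCre driver and the R26mTmG reporter, which turns cells green after recombination. The Cripto KO genotype is labelled Tg:LysMCre::Cripto-/-, and by the methods these animals carried the same driver and reporter with floxed Cripto. LysMCre acts in the myeloid lineage as a whole. The GFP gate keeps cells with a recombined reporter and not necessarily a recombined Cripto allele. By genomic PCR, the paper reports more complete Cripto deletion in GFP-positive cells than in all MPs. It also reports less Cripto protein in sorted GFP-positive MPs of Cripto KO muscle on day 5. The transcript of Cripto itself was not analysed here.

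Values are reads per 1000000 as normalized by the authors, and totals ran from 12688968 to 15659847 reads per sample. Of 15 MP markers all were found, led by C1qb (4391 to 4688 in Control, 4157 to 4473 in Cripto KO) and Gpnmb. Control replicate 1 had 171 for Xist against at most 0.885 in the other samples, which goes against its label as male. Control replicate 2 had 11066 for Lyz2, the locus that carries the LysMCre insertion, against 21.2 to 28.3 in the others. It thus stood apart from the other samples at that locus, although the methods describe the same driver in both groups. Where a call or a count of calls changed by over 1.5 times without Control replicate 1 or 2, the value without it is given. The study's figure legend calls the 3 samples of a group biological replicates, and the labels do not tie them to single animals or pools.

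The catalytic site shows what the MMPs share. In each MMP the active zinc is held by 3 histidines, and a glutamate beside the first of them takes part in cleavage. Below are the 33 coding bases of that site in the mouse genome GRCm38, with the codons of these residues in capitals. They are shown for the enzymes that the results turn on. In Mmp9 the site lies in exon 8 of 13 (chr2:164951133-164951165, plus strand), in Mmp2 in exon 8 of 13 (chr8:92839279-92839311, plus strand), in Mmp14 in exon 5 of 10 (chr14:54437627-54437659, plus strand) and in Mmp12 in exon 5 of 10 (chr9:7352914-7352946, plus strand).
Mmp9: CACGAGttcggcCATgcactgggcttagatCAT
Mmp2: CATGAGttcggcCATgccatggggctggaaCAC
Mmp14: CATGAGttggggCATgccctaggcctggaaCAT
Mmp12: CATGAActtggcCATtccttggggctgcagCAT
Mmp9 and Mmp2, the gelatinases, had 25 of 33 bases in common, Mmp9 and Mmp14 25, and Mmp9 and Mmp12 21. The pattern of the site was found in the reference coding sequence of all 7 MMPs.

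TIMPs block that zinc with the start of the mature protein, where a first and a second cysteine sit close together. The first 33 coding bases of the mature inhibitor are printed for the most and the next most abundant TIMP, with both cysteine codons in capitals. Timp2 starts in exon 1 of 5 (chr11:118354980-118355012, minus strand) and Timp1 in exon 2 of 6 (chrX:20871111-20871143, plus strand), and the stretches had 20 of 33 bases in common.
Timp2: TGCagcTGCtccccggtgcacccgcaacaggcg
Timp1: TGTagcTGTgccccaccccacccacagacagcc

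Levels can be compared between genes only after division by transcript length. Per 1000 bases of the longest transcript, Timp2 had the highest level, with a mean of 269 over the 6 samples and a range of 239 to 306. Mmp12, the macrophage elastase, was next at 123 (101 to 148), followed by Mmp19 at 61.8 (33.9 to 89.5) and Mmp14 at 55.1 (51.0 to 62.4). The ranges of Mmp19 and Mmp14 overlapped, and those of Timp2 and Mmp12, of Mmp12 and Mmp19, and of Mmp14 and Mmp13 did not. The gap between Mmp12 and Mmp19 depends on the length used. Mmp12 has 4474 bases by its longest transcript and 7237 by the union of its exons, and Mmp19 has 3402 and 3533. By the union of exons the ranges of Mmp12 and Mmp19 overlap. Mmp13 stood at 14.2 (11.9 to 16.4) and Mmp9 at 9.76 (4.79 to 14.3). Timp1 (5.37), Mmp2 (4.12) and Mmp8 (3.65) formed a run in which each range overlapped the next. Timp3 was the lowest at 0.971 (0.667 to 1.39), with a range apart from that of Mmp8.

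**Figure D1:**
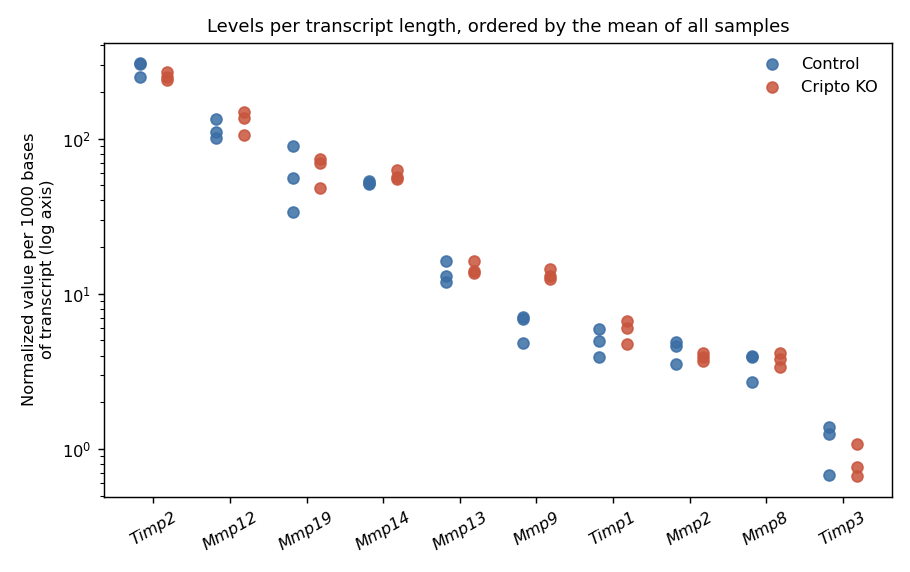
Normalized value per 1000 bases of the longest transcript (log axis) for the 10 genes, ordered by the mean of the 6 samples; each point is 1 sample, blue for Control and red for Cripto KO. Timp2 sits between 239 and 306 and Timp3 between 0.667 and 1.39, and Mmp9 is the gene whose groups are furthest apart.

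Mmp9 was the only one of the 10 genes that passed the test between the groups, at an adjusted p-value under 0.05 in limma over all genes. Mmp9, or gelatinase B, cuts denatured collagen and the collagen of basement membranes. Its normalized values were 15.2, 22.4 and 21.9 in Control replicates 1 to 3 against 39.3, 45.6 and 41.5 in Cripto KO. The groups did not overlap, and the lowest Cripto KO sample lay well above the highest Control sample. Reads behind these values numbered 206 to 296 per Control sample and 601 to 643 per Cripto KO sample.

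Mmp9 rose from a mean of 19.9 ± 4.0 (SD, n = 3) in Control to 42.1 ± 3.2 in Cripto KO, a 2.15-fold higher level with a 95% interval of 1.70 to 2.71. On the log2(Control/Cripto KO) scale the change was -1.10 with a standard error of 0.15 (limma p-value 3.84e-05, adjusted p-value 0.0313, rank 16 of 13008). In bulk RNA, a change in the share of cells that express a gene and a change in RNA per cell cannot be told apart. Without Control replicate 1, which had the lowest Mmp9, the level was 1.90-fold higher (adjusted p-value 0.00764), and without Control replicate 2 it was 2.30-fold higher (0.0449). The adjusted p-value was above 0.05 when Control replicate 3 (0.113) or Cripto KO replicate 1, 2 or 3 (0.0835, 0.223 and 0.147) was left out, while the level stayed 2.07- to 2.28-fold higher. With all 6 samples it was also above 0.05 under eBayes without a trend (0.296), quantile normalization (0.0772) and the replicate block (0.0572).

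Among all 13008 genes, 17 (0.131%) had an adjusted p-value under 0.05, or 31 without Control replicate 1. An unadjusted p-value under 0.05 was found for 1117 (8.59%). Of the 10 members, 1 passed at either threshold. In 1880 genes (14.5%) the groups did not overlap, and among the members this held for 2, Mmp9 and Mmp14. The median log2(Control/Cripto KO) of the members was -0.14, against 0.01 over all genes. Of the members, 3 lay above and 7 below 0, against 6839 above and 6169 below over all genes. Without Control replicate 1, the unadjusted p-value was under 0.05 for 4 members (Mmp9, Mmp14, Mmp19 and Timp2), against 1360 of all 13008 genes. Of these members, Mmp9 alone had an adjusted p-value under 0.05. Without Control replicate 2, the unadjusted p-value was under 0.05 for 1 member, against 1037 of all 13008 genes.

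**Figure D2:**
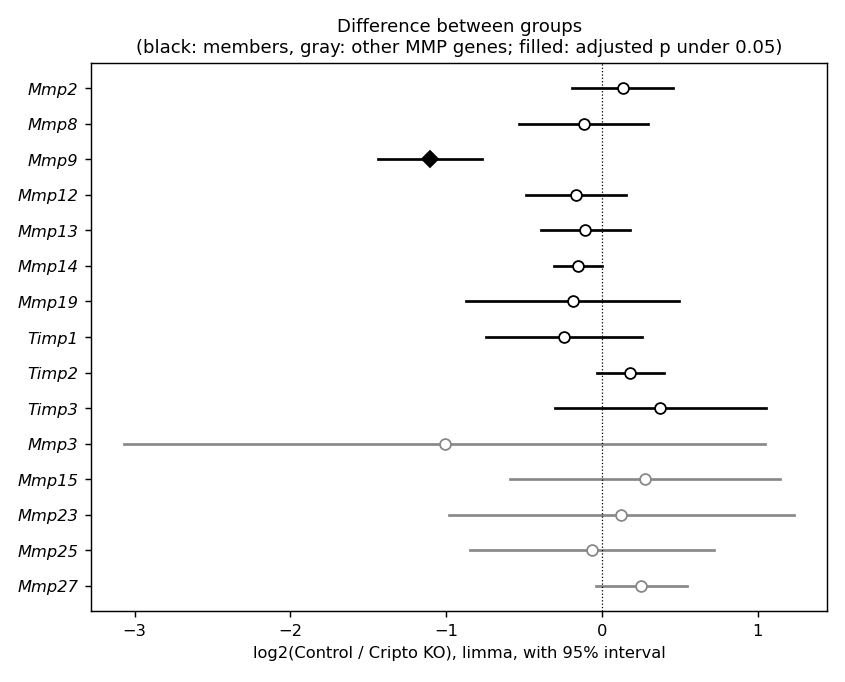
log2(Control/Cripto KO) with its 95% interval from limma for the 10 members (black) and 5 other MMP genes (gray); values left of 0 are higher in Cripto KO and a filled diamond marks an adjusted p-value under 0.05. Mmp9 at -1.10 is the single filled point, and the intervals of the other 14 genes include 0.

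Mmp2, or gelatinase A, shares its substrates with Mmp9 and is known as a product of fibroblasts. Its values were 14.1, 14.9 and 10.9 in Control against 12.0, 12.8 and 11.3 in Cripto KO. The groups overlapped, with means of 13.3 ± 2.1 and 12.0 ± 0.7 and a log2(Control/Cripto KO) of 0.13 (95% interval -0.19 to 0.46, limma adjusted p-value 0.826), or 0.045 without Control replicate 2. The ratio of Mmp9 to Mmp2, per length, was 1.05, 1.46 and 1.95 in Control against 3.19, 3.46 and 3.55 in Cripto KO. The gelatinases thus stood near each other in Control replicate 1 and apart in every Cripto KO sample.

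Mmp8 and Mmp13 are collagenases, which cleave intact fibrillar collagen. Mmp8 had 6.52, 9.65 and 9.51 in Control against 10.1, 8.18 and 9.20 in Cripto KO, means of 8.56 ± 1.77 and 9.17 ± 0.98. The log2(Control/Cripto KO) of -0.12 (adjusted p-value 0.894) became 0.069 without Control replicate 1, the sample with the lowest value. Mmp13, the main collagenase of rodents, had 43.3, 34.6 and 31.7 in Control against 43.8, 36.3 and 37.3 in Cripto KO. Replicate 1 was the highest of both groups, and the groups overlapped (log2(Control/Cripto KO) -0.11, 95% interval -0.39 to 0.18, adjusted p-value 0.851). Without Control replicate 1 the log2 value was -0.23 (adjusted p-value 0.485).

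Mmp9 lay below Mmp13 in Control and beside it in Cripto KO. Per length, the level of Mmp9 was 4.79 to 7.07 in Control, below the 11.9 to 16.2 of Mmp13. In Cripto KO, Mmp9 had 12.4 to 14.3 and Mmp13 13.6 to 16.4, and these ranges overlapped. The ratio of Mmp9 to Mmp13 was 0.475 ± 0.156 (SD, n = 3) in Control and 0.916 ± 0.150 in Cripto KO.

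By the longest transcript, Mmp12 had the highest level of the MMPs. It degrades elastin and is largely made by macrophages. The values were 603, 495 and 451 in Control against 663, 470 and 611 in Cripto KO, so the lowest Cripto KO sample lay below all but one Control sample. The means were 516 ± 78 and 581 ± 99 (log2(Control/Cripto KO) -0.17, 95% interval -0.49 to 0.15, adjusted p-value 0.781), and without Control replicate 1 the log2 value was -0.28 (0.490). By that length, Mmp12 made up 38.5% to 51.5% of the summed MMP level in each sample. Mmp9 made up 1.57% to 3.14% in Control and 4.30% to 5.26% in Cripto KO.

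Mmp14 is anchored in the cell membrane, where it cuts collagen and activates the Mmp2 precursor. It had 173, 168 and 165 in Control against 177, 202 and 185 in Cripto KO. The groups did not overlap, but the highest Control and lowest Cripto KO samples were close, and the means were 169 ± 4 and 188 ± 13. The log2(Control/Cripto KO) was -0.15 with a 95% interval of -0.31 to 0.00 (limma p-value 0.0509, adjusted p-value 0.584). The difference did not pass the test, with or without either Control sample that stood apart (adjusted p-values 0.474 and 0.701).

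Mmp19 varied most among Control samples. It is a secreted MMP that cuts basement membrane proteins. Its values were 304, 115 and 189 in Control against 164, 237 and 252 in Cripto KO. Control samples spanned the whole range of Cripto KO, with means of 203 ± 95 and 218 ± 47 (log2(Control/Cripto KO) -0.19, 95% interval -0.87 to 0.50, adjusted p-value 0.898). The value turned to 0.17 without Control replicate 2 and was -0.53 (adjusted p-value 0.461) without Control replicate 1. Exons of Mmp19 overlap those of Tmem198b on the other strand over 789 bases, and the library kit does not mark strand, so reads from that stretch cannot be told apart.

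**Figure D3:**
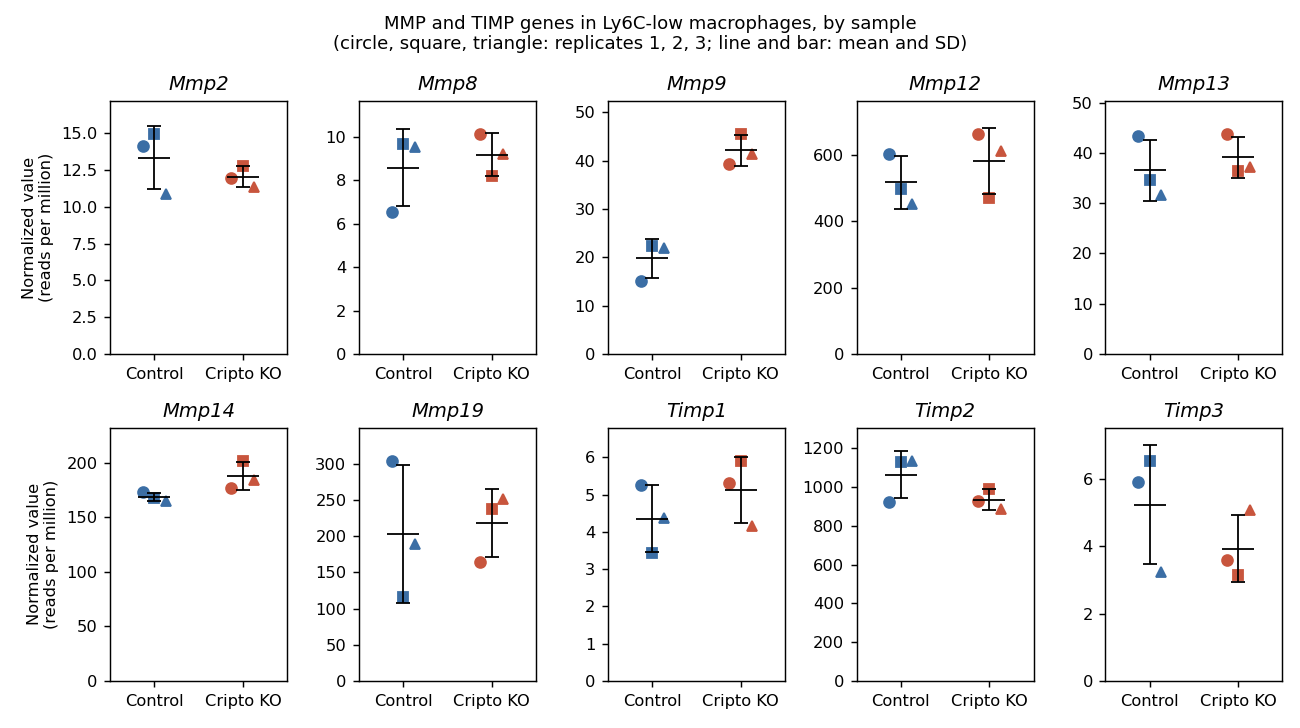
Normalized values (reads per 1000000) of the 10 genes by sample, each panel with its own axis from 0; circles, squares and triangles are replicates 1, 2 and 3, and the line and bar are the mean and SD of 3 samples. Mmp9 rises from 15.2 to 22.4 in Control to 39.3 to 45.6 in Cripto KO, and the groups overlap in the other panels except that of Mmp14.

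Timp2 was by far the most abundant inhibitor and made up 97.2% to 98.3% of the summed TIMP level per length. Besides blocking MMPs, it bridges Mmp14 and the Mmp2 precursor at the cell surface. Its values were 925, 1131 and 1136 in Control against 926, 991 and 887 in Cripto KO. Control replicate 1 lay with the Cripto KO samples, and the means were 1064 ± 121 and 935 ± 53 (log2(Control/Cripto KO) 0.18, 95% interval -0.03 to 0.40, limma adjusted p-value 0.658). Without Control replicate 1 the log2 value was 0.28 and the adjusted p-value 0.261. The difference did not pass the test in either case.

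Timp1 is a secreted inhibitor that binds the Mmp9 precursor. It had 5.26, 3.44 and 4.37 in Control against 5.30, 5.91 and 4.17 in Cripto KO, and the groups overlapped (log2(Control/Cripto KO) -0.24, 95% interval -0.74 to 0.26, adjusted p-value 0.800). Without Control replicate 1 the log2 value was -0.39 and without Control replicate 2 it was -0.082. The ratio of Mmp9 to Timp1, per length, was 0.803, 1.81 and 1.40 in Control against 2.06, 2.14 and 2.77 in Cripto KO. These ratios did not overlap, and since Mmp9 enters them they repeat its difference. Timp3, which stays bound to the matrix, had 5.93, 6.55 and 3.22 in Control against 3.59, 3.15 and 5.07 in Cripto KO. It had 39 to 86 reads per sample, overlapping groups and an adjusted p-value of 0.766 (log2(Control/Cripto KO) 0.38, 95% interval -0.30 to 1.06), and a log2 value of 0.18 without Control replicate 2. Its exons overlap those of Syn3 on the other strand over 1733 bases.

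The balance of the whole set was described by the summed MMP level over the summed TIMP level, each per length. It was 1.19, 0.726 and 0.749 in Control replicates 1 to 3 against 1.12, 0.993 and 1.23 in Cripto KO. The means were 0.889 ± 0.263 (SD, n = 3) and 1.12 ± 0.12, and Control replicate 1 lay within the Cripto KO range. With the union of all exons as the length, the means were 0.675 ± 0.218 and 0.846 ± 0.090. Mmp14 over Timp2 was 0.214, 0.170 and 0.166 in Control against 0.219, 0.234 and 0.238 in Cripto KO, with Control replicate 1 again nearest to Cripto KO.

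By Pearson's r of log2 values over the 6 samples, Mmp12 and Mmp13 had the highest value of the 45 pairs of members (r = 0.87, Spearman's rho 0.89) and Mmp12 and Timp2 the lowest (r = -0.83, rho = -0.77). Over the 4 samples left without the 2 farthest from the median of Mmp12, these were 0.68 and -0.76. The order of the pairs depends on the measure: by rho the lowest pair was Mmp8 and Mmp19 (-0.89), and over 4 samples, chosen by the first gene of each pair, Mmp9 and Mmp14 had 0.96 and Mmp9 and Timp2 -0.997. Mmp9 and Mmp14 had r = 0.75, and both were higher in each Cripto KO sample than in each Control sample. These are descriptions over samples of 2 groups that share normalization and depth, given without a test.

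**Figure D4:**
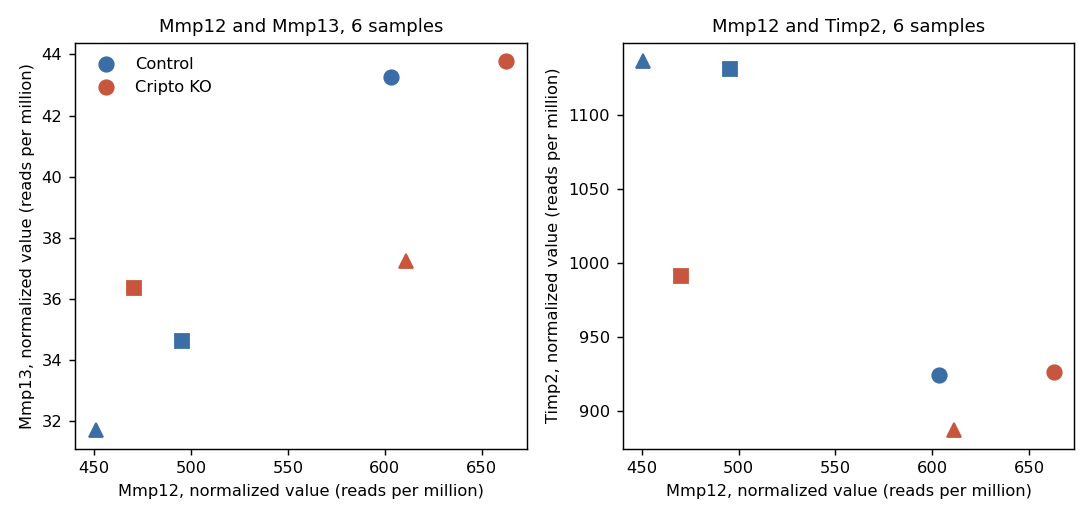
Normalized values (reads per 1000000) of Mmp13 (left) and Timp2 (right) against Mmp12, 1 point per sample, blue for Control and red for Cripto KO, with circles, squares and triangles for replicates 1, 2 and 3. Mmp13 is high where Mmp12 is high (r = 0.87 on the log2 scale) and Timp2 is low there (r = -0.83). Cripto KO replicate 2 has a lower Timp2 (991) than Control replicates 2 and 3 (1131 and 1136) at a similar Mmp12.

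Mmp13, Mmp12 and Mmp8 lie in the MMP gene cluster on chromosome 9, at 7272514 to 7283331, 7344381 to 7369499 and 7558456 to 7568485 (GRCm38). Because Mmp12 and Mmp13 had the highest r, 250 bases before a RefSeq start site of each are printed (GRCm38.p6, plus strand, chr9:7347124-7347373 for Mmp12 and chr9:7272264-7272513 for Mmp13), with the AP-1 motif TGACTCA in capitals. AP-1 factors such as Fos and Jun bind these letters, which were searched on both strands. The motif reads TGAGTCA in Mmp12 because it lies on the other strand.
Mmp13: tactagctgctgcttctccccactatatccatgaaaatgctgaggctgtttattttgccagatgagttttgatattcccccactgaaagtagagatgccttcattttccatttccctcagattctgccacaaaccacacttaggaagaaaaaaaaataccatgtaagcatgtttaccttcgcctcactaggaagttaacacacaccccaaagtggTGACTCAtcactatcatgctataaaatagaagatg
Mmp12: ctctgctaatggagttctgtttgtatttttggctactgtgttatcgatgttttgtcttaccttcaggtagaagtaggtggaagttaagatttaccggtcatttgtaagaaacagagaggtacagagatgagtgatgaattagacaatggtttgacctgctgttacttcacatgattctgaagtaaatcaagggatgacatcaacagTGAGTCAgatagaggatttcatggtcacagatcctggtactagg
It starts at position -35 from the start site in Mmp13 and at -44 in Mmp12. RefSeq gives Mmp12 another start site, whose window (chr9:7344147-7344446) lies at the start of the gene model and does not hold the motif, and the window printed was chosen because it does. Promoter windows of 300 bases were found for 7 of the 10 members (8 windows), and the motif was in these 2 and in 5.20% of all 32851 windows. Mmp2, Mmp9 and Mmp19 were not matched. The ETS motif AGGAAGT was in 9.35% of all windows and in those of Mmp13, Mmp8 and Timp1 and the other Mmp12 window. The RUNX motif AACCACA was in 5.27% of all windows and in that of Mmp13. Such a match is a description of the letters and not of binding.

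Of the transcription factors known to act on MMP genes, 22 of 22 were found, and none passed the test (limma, edgeR and DESeq2 with adjusted p-values). At an unadjusted p-value under 0.05 there were 2, against 8.59% of all genes, and both were higher in Control. Etv6, an ETS-family repressor, had means of 67.2 ± 3.0 in Control and 53.8 ± 6.2 in Cripto KO (log2 0.33, limma adjusted p-value 0.420), and Atf3, an AP-1 partner, 1480 ± 102 and 1255 ± 73 (log2 0.24, adjusted p-value 0.500). Junb, the AP-1 subunit with the highest value, had 4028 ± 139 and 4212 ± 29 (adjusted p-value 0.869). Cebpb had 2764 ± 402 and 2645 ± 247 (adjusted p-value 0.925). The median log2(Control/Cripto KO) of the list was 0.06.

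Genes that activate, dock or clear MMPs numbered 25 of 28 listed. None passed the test in limma, edgeR or DESeq2. An unadjusted p-value under 0.05 was found for 1, against 8.59% of all genes. Without Control replicate 1 there were 4, and without Control replicate 2 there were 3. The one in all samples was Serpinb6a, a serine protease inhibitor, with 477 ± 19 in Control and 411 ± 4 in Cripto KO (log2 0.21, limma adjusted p-value 0.420). Thbs1, whose product binds Mmp9 and Mmp2, had the highest value, 2080 ± 700 and 2155 ± 501 (adjusted p-value 0.955). Mrc1 and Mrc2, receptors that take up collagen, had higher means in Cripto KO. Mrc1 had 590 ± 14 in Control and 647 ± 30 in Cripto KO without overlap (log2 -0.13, adjusted p-value 0.640). Mrc2 had 3.05 ± 0.62 and 4.18 ± 0.61 (log2 -0.46, adjusted p-value 0.629).

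ADAM and ADAMTS genes encode related zinc proteases, some of which TIMPs also inhibit. Of 19 found of 26 listed, none passed the test in limma, edgeR or DESeq2. An unadjusted p-value under 0.05 was found for 2, against 8.59% of all genes, or 1 without Control replicate 2. Adam10, a sheddase of membrane proteins, had 105 ± 7 in Control and 92.2 ± 1.9 in Cripto KO (log2 0.18, adjusted p-value 0.532). Adam8, the most abundant, had 613 ± 111 and 622 ± 78 (adjusted p-value 0.966).

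Other MMPs were few: of 17 further MMP and TIMP genes listed, 5 were in the table, and none passed the test in limma, edgeR or DESeq2 or at an unadjusted p-value under 0.05, while 1 had an unadjusted p-value under 0.05 without Control replicate 1. Mmp27, next to Mmp8 on chromosome 9, had 19.4, 22.5 and 27.4 in Control against 18.9, 18.8 and 20.0 in Cripto KO (log2 0.25, adjusted p-value 0.651). Mmp15, Mmp23 and Mmp25 stood near 1 (means of 0.964 to 1.47), and Mmp3 had 17 reads over all 6 samples.

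Genes of matrix proteins, the substrates of these enzymes, mostly had higher values in Cripto KO. Of 26 found of 27 listed, none passed the test in limma, edgeR or DESeq2. An unadjusted p-value under 0.05 was found for 8, against 8.59% of all genes, and all 8 were higher in Cripto KO. The median log2(Control/Cripto KO) was -0.20, against 0.01 over all genes. It was below 0 in 25 of 26 genes, against 6169 of all 13008 genes. Col3a1, a fibrillar collagen, had 147 ± 7 in Control and 182 ± 13 in Cripto KO (log2 -0.31, limma adjusted p-value 0.373), and Col1a1 195 ± 6 and 231 ± 11 (log2 -0.25, adjusted p-value 0.392). Spp1, or osteopontin, had the highest value of the list and overlapping groups (4831 ± 568 and 5011 ± 327, adjusted p-value 0.922).

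Markers of other cells in the sort were set beside these genes. Of the matrix list, 7 genes are also fibroblast markers, including 5 of its 8 with an unadjusted p-value under 0.05. The 15 fibroblast markers summed to 778 to 854 in Control and 918 to 961 in Cripto KO, and these sums did not overlap. Most of the sum came from Gsn (means of 285 in Control and 305 in Cripto KO), Col1a1 (195 and 231), Col3a1 (147 and 182) and Col1a2 (118 and 139). For Gsn, the largest part, the groups overlapped (262 to 305 in Control and 294 to 313 in Cripto KO). All 15 had a log2(Control/Cripto KO) below 0, from -1.06 for Pdgfra to -0.02 for Serping1. Of these, 6 had an unadjusted p-value under 0.05, or 3 without Control replicate 1. Pdgfra, a defining receptor of fibroblasts, was near 0, at 0.405 to 0.694 in Control and 1.03 to 1.21 in Cripto KO. The sum thus moved with the group in the direction of Mmp9 and Mmp14. Mmp2, a fibroblast product, had overlapping groups and a log2(Control/Cripto KO) of 0.13, or 0.045 without Control replicate 2. Its values thus gave no clear direction. The part of fibroblast RNA in any of these differences was not tested.

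Mmp9 and Mmp8 are also stored in neutrophil granules, so neutrophil markers bear on both. Of 15 listed, 11 were in the table, and 8 of these had a mean under 1. S100a9, Ngp and Retnlg, made in large amounts by neutrophils, had 0 reads in all 6 samples, and Camp had 1 read in all. S100a8 had 0.694 to 1.07 in Control and 1.17 to 1.55 in Cripto KO, and Ltf 0.331 to 0.449 and 0.172 to 0.222. The list summed to 107 to 115 in Control and 97.4 to 109.9 in Cripto KO, of which Csf3r, a receptor also found on macrophages, gave 90.998 to 103.65. No neutrophil marker had an unadjusted p-value under 0.05 in limma or an adjusted one under 0.05 in edgeR or DESeq2. S100a8, higher in Cripto KO, and Ltf, higher in Control, did not overlap between the groups, while the sum of the list did. Both rest on few reads, 8 to 22 per sample for S100a8 and 2 to 5 for Ltf. The part of neutrophil RNA in the difference in Mmp9 was not tested beyond these values.

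**Figure D5:**
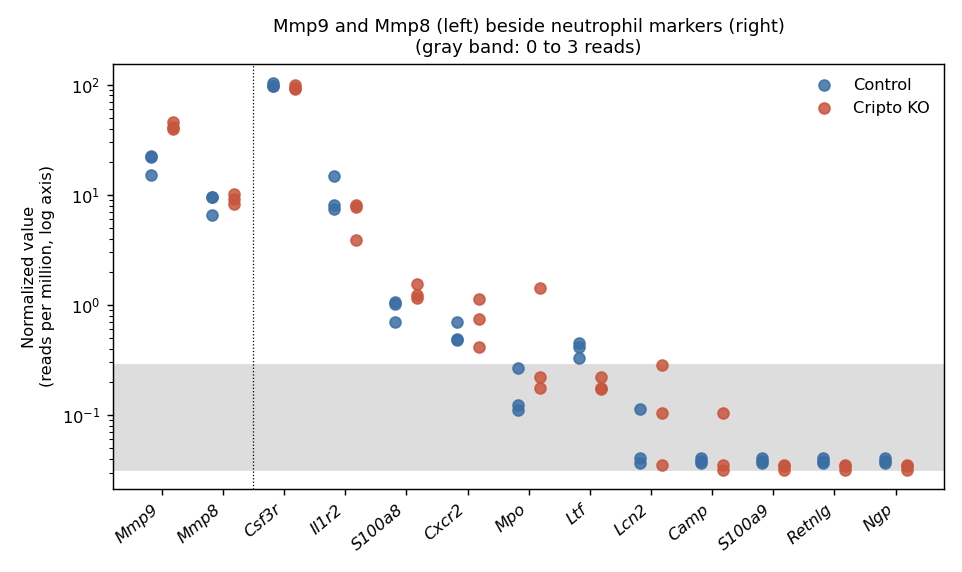
Normalized values (reads per 1000000, log axis) of Mmp9 and Mmp8 (left of the dotted line) and of 11 neutrophil markers (right); each point is 1 sample, blue for Control and red for Cripto KO, and the gray band spans 0 to 3 reads. S100a9, Retnlg and Ngp lie at 0 reads in every sample and Camp in all but one, while Mmp9 lies at 15.2 to 45.6.

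The other marker lists were counted in the same way. Over all genes, 8.59% had an unadjusted p-value under 0.05. The MP markers had 1 of 15 with an unadjusted p-value under 0.05 (Ctsk), or 3 without Control replicate 1 and 0 without Control replicate 2, monocyte and Ly6C-high markers 0 of 10, and endothelial markers 1 of 10. Without Control replicate 1 the monocyte count was 1, and without Control replicate 2 the endothelial count was 2. No gene of these lists had an adjusted p-value under 0.05 in limma, edgeR or DESeq2. Muscle fiber and pericyte markers had 6 of 12 with an unadjusted p-value under 0.05, of which 4 were higher in Control, with 2 of 12 left without Control replicate 1 and 4 without Control replicate 2. They summed to 79.8 to 105 in Control and 55.3 to 94.9 in Cripto KO.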

How the data were processed

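RNA from sorted MPs was made into libraries with the NEBNext Ultra kit, which does not mark strand. By the submitters' processing notes and the study's methods, the authors trimmed reads with Cutadapt 1.7.1, dropped those under 30 bp, quantified them against the GRCm38 transcriptome (release 91) with RSEM 1.2.20 and normalized with limma. The deposited table holds signal values, that is reads plus 0.5 per 1000000 of a normalized library size; dividing by the step of 1 read gave whole reads for 100.0% of 78048 values (within 0.01). Of 13008 genes, 13 had 0 reads in every sample.

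Log2 values, with no pseudocount and no filter, were fitted over all genes with limma 3.58.1 (lmFit, eBayes with a trend), without pairing, and adjusted by Benjamini-Hochberg. edgeR 4.0.16 and DESeq2 1.42.0 on the recovered reads were alternatives, among 17 settings, and the fits were tested on simulated data. Depth was 12688968 to 15659847 reads per sample, and 3 reads correspond to 0.222 to 0.286 per 1000000.

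The members and lists were chosen with earlier results of these data known. The text names all 10 members, the other MMP genes in the table, from each pathway list the 2 highest genes and up to 3 with the smallest p-values, from each marker list the 2 highest and those with a mean under 1, and member pairs by their correlation; not every gene so chosen is described, and Ctsk and S100a8 were added after values were seen. Gene models came from GENCODE M21 and promoters from RefSeq.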

Additional observations from a re-analysis of the deposited data

How the results depend on the processing

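Over 17 alternative settings, 161 of 170 member values kept their direction and their side of the threshold. Mmp9 was higher in Cripto KO in all 17, by 1.90- to 2.30-fold, and its adjusted p-value was under 0.05 in 10 of them, among them edgeR (0.0222), DESeq2 (1.395e-09) and voom weights (0.0465). It was above 0.05 with eBayes without a trend (0.296), with quantile normalization (0.0772), with the replicate block (0.0572) and without 4 of the 6 samples, and the number of members called was then 0. When 1 sample was left out, the members called ranged from 0 to 1, the genes called from 5 to 31, and the log2 value of Mmp9 from -1.20 to -0.92. The genes called numbered 17 as reported, 71 with DESeq2, 31 with robust eBayes, 5 without a trend, 6 with quantile normalization and 9 with voom weights. The log2 value of Mmp8 ranged from -0.21 to 0.069 when 1 sample was left out and turned above 0 without Control replicate 1, and that of Mmp19 ranged from -0.53 to 0.17 and turned above 0 without Control replicate 2. With the union of exons as length, the MMP to TIMP ratio was lower in both groups. It was 0.675 instead of 0.889 in Control and 0.846 instead of 1.12 in Cripto KO. The union lengthens Mmp12 from 4474 to 7237 bases and Mmp14 from 3238 to 5960. It lengthens Timp2 only from 3709 to 3896 bases, so the ratio falls by the choice of length. The cause of the other changes was not tested.

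Deviations from the group means of same-numbered samples correlated at -0.21, -0.0052 and -2.46e-05. Those of differently numbered samples correlated at -0.153 to 0.139. With 3 samples per group, these values cannot settle whether the replicate numbers pair the samples. With the replicate block, 2 genes and 0 members were called. Timp1 and Timp3 rest on 395 and 378 reads over all samples; the width of the intervals was not tested against depth.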
